A study of Mus musculus with 4 samples.

Results

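The genes described here encode receptors for the inhibitory transmitters GABA and glycine, the scaffold and adhesion proteins that hold those receptors at synapses, the chloride cotransporters that set the driving force for them, and the proteins that take up and break down GABA. They were chosen by gene symbol, 28 in all, and 28 of 28 were measured, each by 1 transcript cluster, among 19572 transcript clusters that carry a gene symbol. Both groups were male mice of SAMR1, a senescence-resistant line that ages normally and serves as the control of the SAMP lines, and brain cortex was taken. The animals had lived in single cages from an age of 7 months for 4 months. At 11 months one group was started on 5 mg/kg oral TCQA (tricaffeoylquinic acid, a polyphenol of plants) each day for 1 month, and controls were given MilliQ water. There were 2 Clariom S mouse arrays per group and 4 altogether, called TCQA 1, TCQA 2, water 1 and water 2 after the numbers in the labels. Neither the number of mice nor any pooling behind an array is given in the labels, so p-values reflect the spread among these 4 samples alone, part or all of which may be technical, and precision is limited by their number. Markers of cortical excitatory neurons were present on all arrays: Slc17a7, the vesicular glutamate transporter, ranged from 15.98 to 16.34 and the transcription factor Tbr1 from 12.79 to 13.85 in log2 signal, and 7 of 13 measured markers of that list lay above the 95th percentile of the negative control probe sets. The same held for 9 of 13 measured striatal markers, so the samples were not shown to be cortex alone.

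GABA-A receptors are chloride channels made of 5 subunits, usually alpha and beta subunits with a gamma or a delta subunit, and the alpha subunit largely sets where the receptor sits and which drugs act on it. Glycine receptors are related chloride channels that dominate in brainstem and spinal cord, whereas GABA-B receptors are G protein-coupled and act more slowly through potassium and calcium channels. Whether an open chloride channel inhibits a neuron depends on the chloride gradient, which Slc12a5 (KCC2) maintains by extruding chloride and Slc12a2 (NKCC1) opposes by loading it.

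Promoter sequences are shown for the 4 genes that the results turn on, Gabrq, the one gene with an unadjusted p under 0.05, and Gabra5, Nlgn2 and Gabbr1, which came next by p-value. Each is the 250 bases before an annotated transcript start, which for Gabra5 and Gabrq lies inside the annotated gene, 5′ to 3′ on the strand of the gene, from RefSeq on GRCm38.p6, with matches to the GC box (GGGCGG, the site of Sp1-type factors, on either strand) in capitals.
Gabrq, chrX:72824928-72825177, + strand: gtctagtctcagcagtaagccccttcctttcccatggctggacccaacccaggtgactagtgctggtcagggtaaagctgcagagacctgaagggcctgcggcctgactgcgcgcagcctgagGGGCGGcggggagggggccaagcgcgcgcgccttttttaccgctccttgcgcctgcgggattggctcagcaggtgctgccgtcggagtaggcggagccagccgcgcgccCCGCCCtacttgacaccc
Gabra5, chr7:57510060-57510309, - strand: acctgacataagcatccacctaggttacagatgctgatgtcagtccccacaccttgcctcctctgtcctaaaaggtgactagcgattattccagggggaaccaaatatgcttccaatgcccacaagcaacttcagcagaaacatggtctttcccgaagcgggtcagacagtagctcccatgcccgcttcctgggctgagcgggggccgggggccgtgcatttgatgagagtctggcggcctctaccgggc
Nlgn2, chr11:69837785-69838034, - strand: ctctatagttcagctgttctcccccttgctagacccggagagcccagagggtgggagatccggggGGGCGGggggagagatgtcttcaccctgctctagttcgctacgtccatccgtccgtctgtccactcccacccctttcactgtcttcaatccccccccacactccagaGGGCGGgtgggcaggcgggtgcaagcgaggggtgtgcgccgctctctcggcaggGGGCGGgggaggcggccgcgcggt
Gabbr1, chr17:37045716-37045965, + strand: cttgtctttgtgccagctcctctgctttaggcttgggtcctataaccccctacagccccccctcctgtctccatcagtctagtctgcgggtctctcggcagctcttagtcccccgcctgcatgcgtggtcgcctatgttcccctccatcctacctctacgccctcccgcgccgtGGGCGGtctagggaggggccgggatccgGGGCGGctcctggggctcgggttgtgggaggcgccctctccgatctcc
The windows hold 19 CpG dinucleotides for Gabrq, 9 for Gabra5, 18 for Nlgn2 and 16 for Gabbr1, against a median of 6 over 27025 genes.

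RefSeq promoter windows were matched for 24 of the 28 genes, and Gabrd, Glra1, Slc12a2 and Abat were without one. Gabra3, Gabrb1, Gabrb2 and Slc12a5 had several annotated starts; a motif in any of their windows was counted, and the window with the most CpG stood for the gene. Of the 24 genes 16 (66.7%) held a GC box, against 35.4% of all genes in the promoter table. The median number of CpG was 17 for the 15 genes whose array signal lay above the 95th percentile of the negative control probe sets, 4 for the 3 genes between the median and that percentile, and 5 for the 6 genes below the median of those controls. Gabra6, which is known for cerebellar granule cells, had 2 CpG, while Gabrq and Gabre had 19 and 21 although their signals were at background. Gabra3 was the opposite case, with a clear signal and 0 CpG. A TATA box (TATAAA, either strand) was found for 3 of 24 genes, Gabra3, Gabrb2 and Glra2 (12.5%, against 14.3% of all genes), and an EGR site (GCGNGGGCG, either strand) for Gabrb2 and Glra3 (8.33%, against 5.33%). The cAMP response element TGACGTCA and the left part of the RE1 site, TTCAGCACC, were searched on both strands and had 0 matches in the 24 genes, against 1.77% and 0.348% of all genes. These matches describe letters in a window, and none of these motifs overlapped another in the sequences printed above.

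The comparison of TCQA with water asked whether the expression of inhibitory receptors and chloride transport differed in the treated cortex. Of the 28 genes 18 had a higher and 10 a lower mean after TCQA, with a median log2 change of 0.04, against 50.5% higher and a median of 0.0028 over all 19572 transcript clusters. Without water 2 the count was 12 of 28 higher with a median of -0.11, and 16 of the 28 genes turned direction when one or another array was left out. One gene, the theta subunit Gabrq, had an unadjusted p under 0.05 by limma, with the lower values after TCQA, but its signal was at background on all arrays (0 higher and 1 lower of 28, where 7.37% of all transcript clusters had such a p, 3.48% higher and 3.89% lower). With Benjamini-Hochberg adjustment over all transcript clusters 0 of 28 passed by limma, adjusted p-values running from 0.673 to 1.00, and the percentage over all transcript clusters was 0. The groups did not overlap for 10 of the 28 genes, against 39.2% of all transcript clusters, 6 of them with TCQA above water (19.9% of all transcript clusters) and 4 below (19.2%). In bulk tissue, fewer cells of a type and less RNA per cell cannot be told apart in any of these differences. None of the 28 genes passed the filter the study states (over 2-fold with a p-value under 0.05 before adjustment), which 0.664% of all transcript clusters met.

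**Figure D1:**
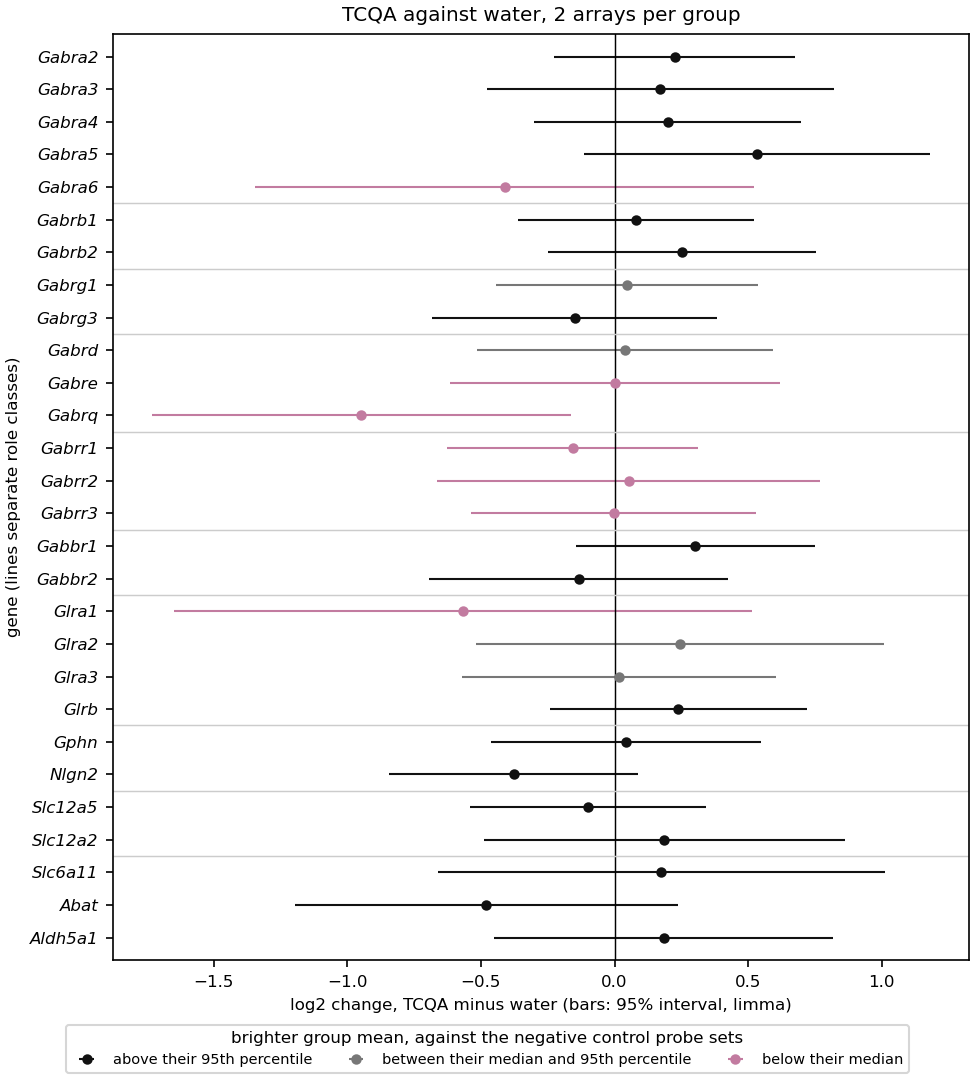
Log2 change of each of the 28 genes, TCQA minus water, with the 95% interval from limma (2 arrays per group), ordered by role; colours give the brighter group mean against the negative control probe sets. The interval of Gabrq runs from -1.73 to -0.16 and the other 27 cross 0; Gabra5 has the highest change, at 0.53.

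The signals were set against those of the probe sets named as negative controls, and background here means the signals of those controls. What these probe sets match was not checked. Their medians per array, 6.97 to 7.00, were close to those of the transcript clusters with a gene symbol, 6.98 to 7.04. A signal under the control median therefore does not by itself show that a gene is absent. The negative control probe sets had a median of 6.98 and a 95th percentile of 11.06 on the log2 scale over the 4 arrays. The brighter group mean lay above that percentile for 17 of the 28 genes, between the median and the percentile for Gabrg1, Gabrd, Glra2 and Glra3, and below the median for 7. Those 7 were Gabra6, Gabre, Gabrq, Glra1 and the rho subunits Gabrr1, Gabrr2 and Gabrr3, which form GABA receptors best known from retina. For these both group means lay below the control median, so no linear fold is given. Their log2 differences and p-values are printed to account for each gene. These controls do not separate such signals from background, nor do they show that the genes are absent. Gabrd, the delta subunit of extrasynaptic receptors, stood at 7.48 and 7.48 in the treated pair of arrays and at 7.19 and 7.69 in the control pair, close to that median on all arrays.

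The spread between arrays of one group was as large as most of the changes. For 23 of the 28 genes at least one within-group difference exceeded the change between groups, against 73.2% of all transcript clusters. The median size of the difference between the water arrays was 0.35 over the 28 genes and 0.24 over all transcript clusters. Between the TCQA arrays it was 0.16 and 0.22, and the median size of the change between groups was 0.18 and 0.19. Water 1 held the highest value for 10 of the 28 genes and also the lowest for 10, in both cases more often than any other array.

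**Figure D2:**
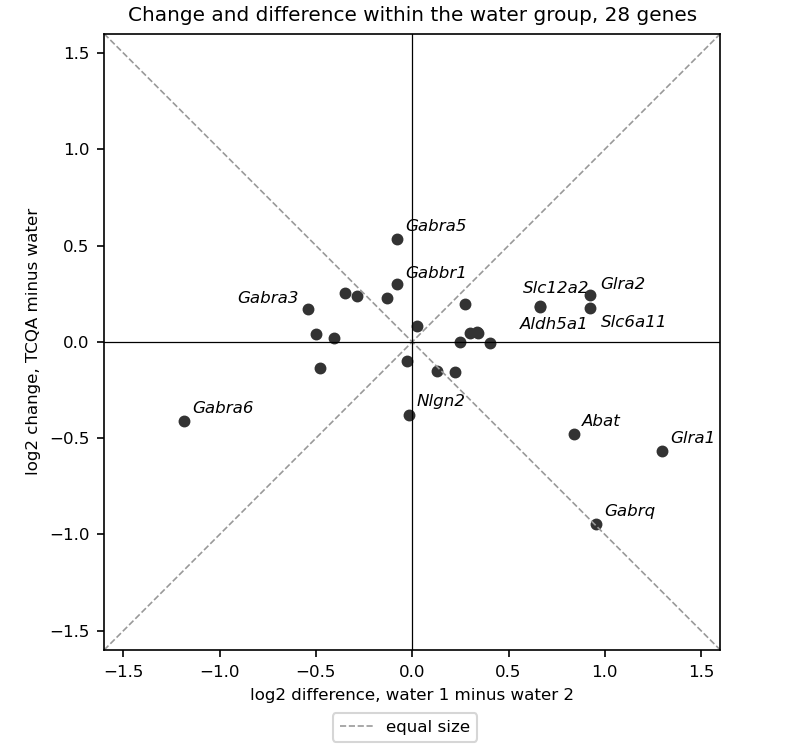
Each point is 1 of the 28 genes, with the log2 difference between water 1 and water 2 on the horizontal axis and the log2 change, TCQA minus water, on the vertical axis; dashed lines mark equal size. Genes far to the right or left of the dashed lines, such as Glra1 (1.30), Glra2 (0.92), Slc6a11 (0.93) and Gabra6 (-1.19), differ more between the 2 water arrays than between groups, while Gabra5, Gabbr1 and Nlgn2 lie near the vertical axis.

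Among the alpha subunits the means of Gabra2, Gabra3, Gabra4 and Gabra5 were higher after TCQA and that of Gabra6 was lower, and 0 of 5 passed the unadjusted threshold. Gabra5, the alpha subunit of tonic, largely extrasynaptic receptors, stood at 12.67 and 13.37 in TCQA 1 and TCQA 2 and at 12.45 and 12.53 in water 1 and water 2. Both TCQA arrays were above both water arrays, but TCQA 1 was closer to the water arrays than to TCQA 2. The change was 0.53 (SE 0.27, 1.45-fold, 95% interval -0.11 to 1.18; limma, adjusted p = 0.690). Without TCQA 2 it was 0.18, and without TCQA 1 it was 0.88 with an unadjusted p of 0.0129 by limma. Here and below, leaving out an array leaves 1 in its group, which is assumed to vary like the other group. Such p-values rest on the 2 arrays that remain together and on limma's prior, which is drawn from all transcript clusters. They do not measure the spread of the gene alone. Olfactory bulb markers also set TCQA 2 apart: the mean of 13 measured markers of 14 listed was 7.85 on that array and between 6.26 and 6.62 on the others, and 9 of the 13 were highest in TCQA 2. Their part in the value of Gabra5 was not tested.

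Gabra2, the alpha subunit of many synapses onto pyramidal cells, stood at 13.38 and 13.32 in the treated pair of arrays and at 13.06 and 13.19 in the control pair, which do not overlap, a change of 0.23 (SE 0.19). Gabra3 stood at 12.21 and 12.67 in the treated pair of arrays and at 12.001 and 12.54 in the control pair, a change of 0.17 with overlapping groups. Gabra4, which pairs with the delta subunit in forebrain, differed by 0.20 and overlapped as well. Gabra6 ranged from 2.96 to 4.15, under the control median on each array, and its highest value was that of water 2. Cerebellar markers were low too, with 9 of 14 measured ones below the control median and list means between 6.34 and 6.59. Its difference of -0.41 is therefore not read as a change.

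The beta subunits, which carry the GABA site together with alpha, were measured by Gabrb1 and Gabrb2. Gabrb2 stood at 14.54 and 14.59 in the treated pair of arrays and at 14.14 and 14.49 in the control pair, a change of 0.25 (SE 0.21, 95% interval -0.25 to 0.75; limma, adjusted p = 0.778). Its groups did not overlap, although water 2 was closer to the TCQA arrays than to water 1, and without water 1 the change was 0.08. Gabrb1 varied little, at 12.19 and 12.14 in the treated pair of arrays and 12.10 and 12.07 in the control pair. Gabrb1 and Gabra4 are neighbours in the genome with overlapping starts, and the array measures them by separate transcript clusters.

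The gamma subunits anchor receptors at synapses and take part in the benzodiazepine site. Gabrg3 stood at 11.54 and 11.11 in the treated pair of arrays and at 11.53 and 11.41 in the control pair, a change of -0.15 (SE 0.22; limma, adjusted p = 0.888) that was 0.06 without TCQA 2, the low array. Gabrg1 differed by 0.05, with values from 9.28 to 9.58 that overlapped between groups. Gabrg3 and Gabra5 lie side by side on chromosome 7, and TCQA 2 was the lowest array for the one and the highest for the other.

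Gabrq encodes the theta subunit, found in a few brain regions such as hypothalamus and brainstem nuclei. It stood at 4.29 and 4.44 in the TCQA arrays and at 5.79 and 4.83 in the water arrays. All 4 values lay below the control median of 6.98, and water 1 stood apart from the other 3 arrays. The change was -0.95 (SE 0.33, 95% interval -1.73 to -0.16) with an unadjusted p of 0.0251 and an adjusted p of 0.673 by limma. Without water 1 and without TCQA 1 the call was lost, with changes of -0.47 and -0.88, while without water 2 the change was -1.43. Gabre, the epsilon subunit, and Gabra3 are its neighbours on chromosome X, and their changes were 0.0007 and 0.17. Thalamic markers, as a sign of deeper tissue, averaged 8.56 in water 1 and between 7.72 and 8.04 in the other arrays (14 of 14 measured). Striatal markers averaged 12.51 there and between 10.98 and 11.54 in the others (13 of 15 measured). Water 1 was the highest array for 8 of the 14 thalamic and 13 of the 13 striatal markers. The thalamic list shares Calb2 and Slc17a6 with the olfactory bulb list. The part of these markers in the difference was not tested.

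The rho subunits Gabrr1, Gabrr2 and Gabrr3 changed by -0.16, 0.05 and -0.0035, with values between 4.11 and 6.02 on all arrays. Gabrr1, which had the smallest p of the class, stood at 4.34 and 4.24 in the treated pair of arrays and at 4.56 and 4.34 in the control pair, with overlapping groups (SE 0.20; limma, adjusted p = 0.858). At this signal, as for Gabrq, these controls do not show whether the gene is expressed, and no size or order of groups is read.

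The GABA-B receptor needs both of its subunits, Gabbr1 for binding GABA and Gabbr2 for reaching the membrane and coupling to G proteins. Gabbr1 stood at 15.81 and 15.90 in the treated pair of arrays and at 15.52 and 15.59 in the control pair. The arrays of each group lay close together and the groups did not overlap, with a change of 0.30 (SE 0.19, 1.23-fold, 95% interval -0.15 to 0.75; limma, adjusted p = 0.714). Leaving out any one array left the change between 0.26 and 0.34. Gabbr2 stood at 16.17 and 15.99 in the treated pair of arrays and at 15.97 and 16.45 in the control pair, a change of -0.13 with overlapping groups. When limma's prior followed the signal (trend and robust options), Gabbr1 had an unadjusted p of 0.0249, Gabra5 0.0373 and Nlgn2 0.0442, while their changes were the same. With these options 1582 of all 19572 transcript clusters had an unadjusted p under 0.05 by limma, and 0 passed after adjustment.

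**Figure D3:**
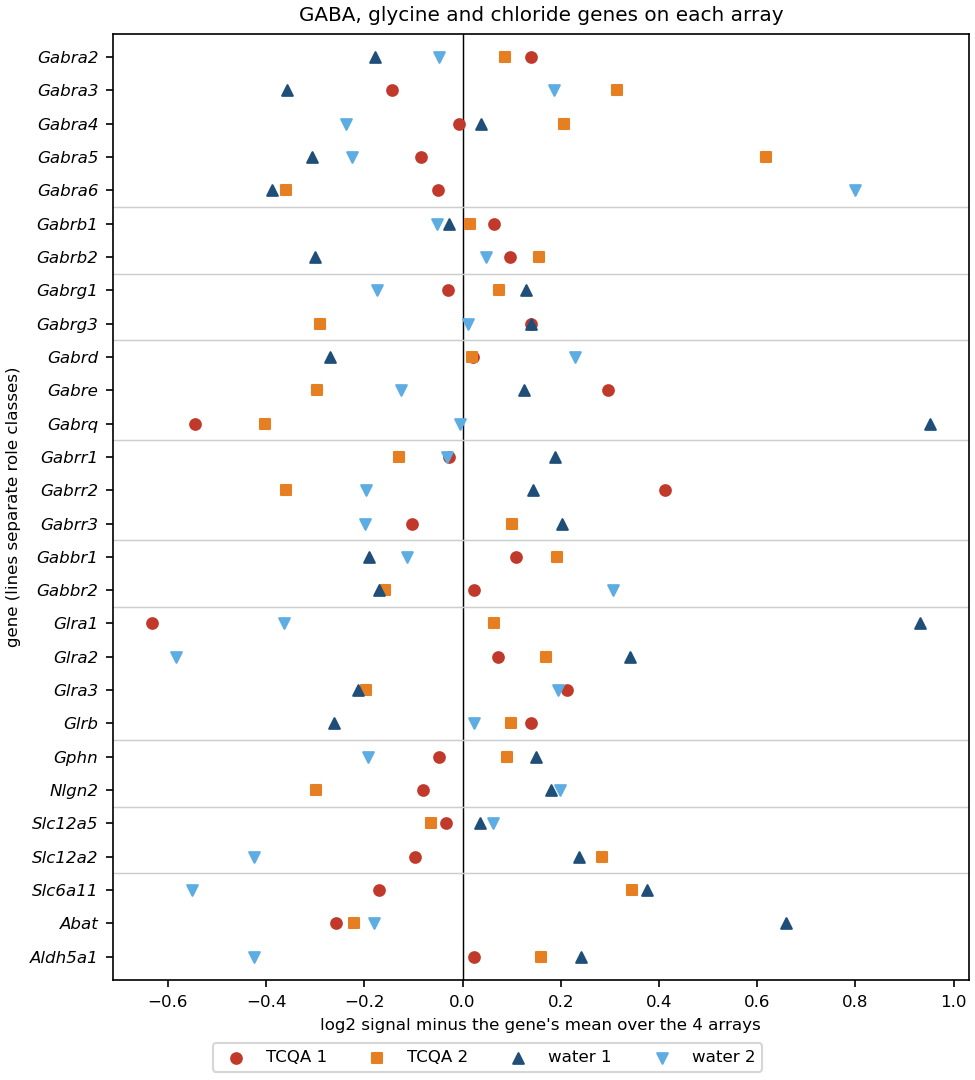
Log2 signal of each gene on each array, minus the mean of that gene over the 4 arrays, in role order; circles and squares are TCQA 1 and TCQA 2, upward and downward triangles water 1 and water 2. Both TCQA symbols lie right of both water symbols for Gabra2, Gabra5, Gabrb1, Gabrb2, Gabbr1 and Glrb, and left of them for Gabrq, Nlgn2, Slc12a5 and Abat; water 1 lies far right for Gabrq, Glra1 and Abat.

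Of the glycine receptor subunits Glrb, the beta subunit that binds gephyrin, stood at 14.76 and 14.72 in the treated pair of arrays and at 14.36 and 14.65 in the control pair, a change of 0.24 (SE 0.20) with groups that did not overlap. Glra2, the alpha subunit of the developing forebrain, stood at 7.51 and 7.61 in the treated pair of arrays and at 7.78 and 6.85 in the control pair, and the TCQA arrays lay between the water arrays. Without water 1 its change was 0.71 with an unadjusted p of 0.0288 by limma, against 0.24 with all arrays, and without water 2 it was -0.22. Glra3 differed by 0.02 with an interval of -0.57 to 0.61. Glra1, the adult alpha subunit of spinal cord and brainstem, stood at 5.67 and 6.37 in the treated pair of arrays and at 7.24 and 5.94 in the control pair, where water 1 alone was above the control median. Its change of -0.57 (SE 0.45; limma, adjusted p = 0.770) became 0.08 without water 1 and -1.22 without water 2. Markers of hindbrain and spinal glycinergic neurons were at background, 7 of 8 measured ones below the control median, and their mean lay between 5.06 and 5.11 on all arrays. Slc6a5, the glycine transporter of glycinergic terminals, lay between 4.87 and 5.04.

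Gephyrin, encoded by Gphn, is the scaffold under GABA-A and glycine receptors, and Nlgn2 is the adhesion protein of inhibitory synapses that recruits it. Nlgn2 stood at 11.14 and 10.92 in the treated pair of arrays and at 11.40 and 11.42 in the control pair. Both TCQA arrays were below both water arrays, and the water arrays differed by 0.02. The change was -0.38 (SE 0.19, 1.30-fold lower, 95% interval -0.84 to 0.09; limma, adjusted p = 0.690), and it lay between -0.49 and -0.27 when any one array was left out. Gphn stood at 12.20 and 12.34 in the treated pair of arrays and at 12.39 and 12.05 in the control pair, a change of 0.04 with overlapping groups. The brighter mean of Nlgn2 was close to the 95th percentile of the controls, and 95.5% of control values lay below its mean over the arrays.

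The chloride cotransporters had small changes of opposite sign, and neither passed the unadjusted threshold. Slc12a5, the neuronal chloride extruder, stood at 13.14 and 13.11 in the treated pair of arrays and at 13.21 and 13.23 in the control pair. The groups did not overlap and the arrays of each group differed by 0.03, less than the change of -0.10. The SE of 0.18 from limma combines the spread of this gene with a prior drawn from all transcript clusters. The 95% interval was -0.54 to 0.34, which holds 0. Slc12a2, the chloride loader of glia, immature neurons and choroid plexus epithelium, stood at 11.60 and 11.98 in the treated pair of arrays and at 11.94 and 11.27 in the control pair, a change of 0.19 (SE 0.28; limma, adjusted p = 0.890) with overlapping groups. It became -0.0030 without TCQA 2 and -0.14 without water 2. Within each array, Slc12a5 relative to Slc12a2, centred on the mean of the 4 arrays, was 0.06 and -0.35 in the treated pair and -0.20 and 0.49 in the control pair, so the difference between groups of -0.28 was smaller than that between the arrays of either group. Choroid plexus markers averaged 6.59 and 6.28 in the treated pair of arrays and 7.80 and 7.18 in the control pair (12 of 13 measured), and their part in the value of Slc12a2 was not tested.

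The proteins that clear GABA were marked by a difference within the water group. Abat, the mitochondrial GABA transaminase, stood at 13.98 and 14.02 in the treated pair of arrays and at 14.90 and 14.06 in the control pair. Water 1 stood apart, and water 2 was close to the TCQA arrays. The change was -0.48 (SE 0.30, 1.39-fold lower, 95% interval -1.20 to 0.24; limma, adjusted p = 0.714), and it was -0.06 without water 1 and -0.90 without water 2 (unadjusted p = 0.0104 by limma). Aldh5a1, the succinate semialdehyde dehydrogenase that completes the breakdown, stood at 11.24 and 11.38 in the treated pair of arrays and at 11.46 and 10.79 in the control pair. Slc6a11, a GABA transporter mainly of astrocytes, stood at 13.57 and 14.09 in the treated pair of arrays and at 14.12 and 13.19 in the control pair. For both, water 1 was the highest array and water 2 the lowest, and the changes of 0.18 and 0.18 were smaller than the differences of 0.67 and 0.93 between the water arrays, and both turned negative without water 2 (-0.15 and -0.29). The mean of the astrocyte markers lay between 11.78 and 11.91 on all arrays (12 of 12 measured), with members in both directions such as Fgfr3 (0.54) and Gfap (-0.58, highest in water 1 at 11.51), whereas myelin markers averaged 12.03 in water 1 and 11.43 to 11.44 in the others (12 of 13 measured). The part of either in these values was not tested.

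**Figure D4:**
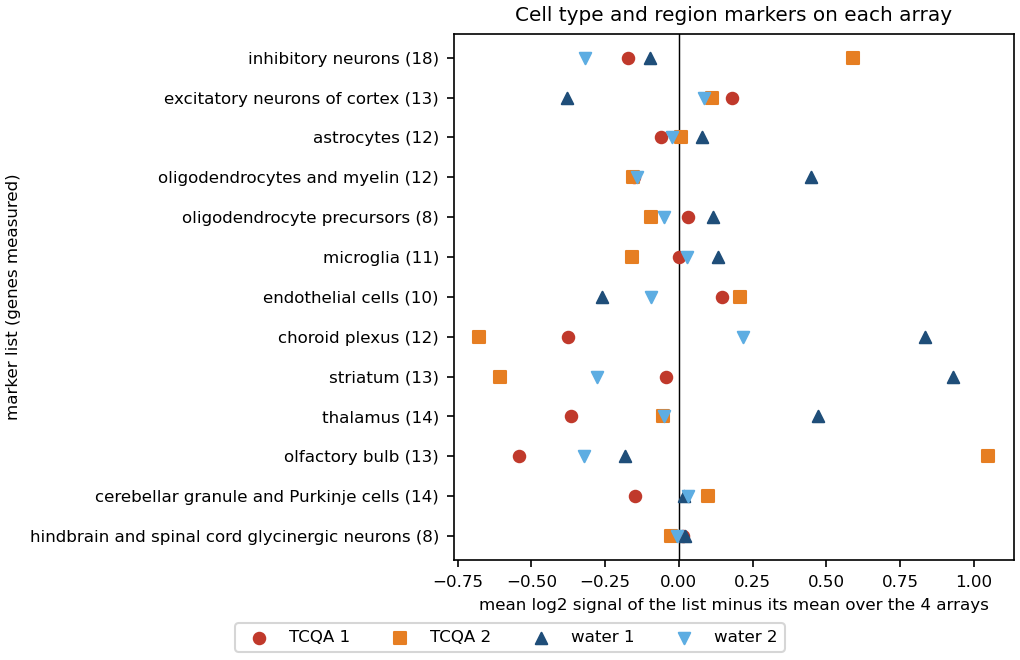
Mean log2 signal of each marker list on each array, minus its mean over the 4 arrays; the number of genes measured is in brackets. Water 1 is highest for striatum, thalamus, choroid plexus and myelin lists, and by less for astrocyte, oligodendrocyte precursor, microglia and hindbrain lists. It is lowest for excitatory neurons (11.32, against 11.79 to 11.88) and endothelial cells (9.28, against 9.44 to 9.74). TCQA 2 is highest for olfactory bulb and inhibitory neuron lists, which share Calb2 and Sp8, and also for endothelial and cerebellar lists.

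Other genes of inhibitory transmission were taken from 6 lists of 76 symbols, of which 69 were measured. Of these 42 were higher and 27 lower after TCQA, with a median log2 change of 0.08, against 50.5% higher and a median of 0.0028 over all transcript clusters. By limma 3 were higher and 0 lower with an unadjusted p under 0.05, against 3.48% and 3.89% of all transcript clusters, and 0 passed after adjustment. Amt, the aminomethyltransferase of the glycine cleavage system, stood at 9.53 and 9.53 in the treated pair of arrays and at 9.04 and 8.93 in the control pair, a change of 0.54 (SE 0.19, 1.46-fold; limma, adjusted p = 0.673). Mocs1, an enzyme of the molybdenum cofactor pathway that gephyrin also serves, stood at 9.54 and 9.48 in the treated pair of arrays and at 9.02 and 8.98 in the control pair, a change of 0.51 (SE 0.18; limma, adjusted p = 0.673). Slc12a9, a relative of the cation-chloride cotransporters, stood at 8.20 and 8.31 in the treated pair of arrays and at 7.47 and 7.77 in the control pair, a change of 0.63 (SE 0.20; limma, adjusted p = 0.673). In all of them both TCQA arrays lay above both water arrays, as in 19.9% of all transcript clusters. They were named for their p-value, so this is not a separate result. All lay between the median and the 95th percentile of the negative controls. Without TCQA 2 none of the 69 had an unadjusted p under 0.05 by limma, and the changes of Amt, Mocs1 and Slc12a9 were then 0.54, 0.54 and 0.58. Mocs1 lost its unadjusted p under 0.05 when any of the 4 arrays was left out, Amt when any but water 1 was, and Slc12a9 also without water 1. With 1 array left out the changes lay between 0.48 and 0.54 for Mocs1, 0.49 and 0.60 for Amt and 0.49 and 0.78 for Slc12a9.

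In the other lists the gene of the smallest p did not pass. Kcnj9, a GIRK potassium channel subunit through which GABA-B receptors act, stood at 9.26 and 9.19 in the treated pair of arrays and at 8.21 and 9.01 in the control pair, a change of 0.62 (SE 0.29; limma, adjusted p = 0.685) that was 0.22 without water 1, the low array. Akr1c18, a steroid dehydrogenase that acts on progesterone, stood at 7.29 and 8.08 in the treated pair of arrays and at 6.18 and 7.35 in the control pair, a change of 0.92 (SE 0.43; limma, adjusted p = 0.685) with overlapping groups. It was 0.34 without water 1 and 0.53 without TCQA 2, and 1.31 without TCQA 1 and 1.51 without water 2. Slc6a12, a betaine and GABA transporter, ranged from 2.94 to 3.52, under the control median on each array. The GABA-synthesising enzymes, named here after their values were seen, followed no group: Gad1 stood at 11.32 and 12.80 in the treated pair of arrays and at 12.01 and 11.30 in the control pair, and Gad2 at 12.57 and 13.01 in the treated pair of arrays and at 12.93 and 11.97 in the control pair. Gad1 had an unadjusted p under 0.05 by limma without TCQA 1 (1.15) and Gad2 without water 1 (0.82). For both genes TCQA 2 was highest and water 1 second. The same pair of arrays was highest for Gabra4, Gabrg1, Gabrr3, Glra1, Glra2, Gphn, Slc12a2, Slc6a11 and Aldh5a1, of which Gabrr3 and Glra1 were at background. How often this held over all transcript clusters was not counted. The mean of the inhibitory neuron list, which holds both, was 10.50 in TCQA 2 and between 9.60 and 9.81 elsewhere (18 of 18 measured). Of these 18 markers 9 were highest in TCQA 2, 5 in water 2 (Pvalb, Sst, Lamp5, Npy and Cck), 3 in water 1 and 1 in TCQA 1 (Lhx6). The list shares Calb2 and Sp8 with the olfactory bulb list, so the means of the lists are not separate. Calb2 stood at 11.27 in TCQA 2 and between 7.91 and 9.47 elsewhere. Sp8 stood at 7.82 in TCQA 2 and between 5.35 and 5.88 elsewhere.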

How the data were processed

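RNA of 4 brain cortex samples was hybridised to Clariom S mouse arrays from 100 ng each. The deposited values are log2 signals made by the authors with the SST-RMA method of Transcriptome Analysis Console software (4.0.2), as the series' design text states; they carry no depth per array, and SST-RMA can enlarge fold changes against plain RMA. The build behind the array annotation is not stated in these sources; promoters are RefSeq windows on GRCm38.p6. Symbols came from the platform annotation (19572 of 28846 rows; all matched RefSeq identifiers on GRCm38.p6). Groups came from the labels. The 2 groups were set against each other with limma 3.58.1 (R 4.3.3) (lmFit, eBayes, 2-sided, no block), which is the study's ANOVA with empirical Bayes, adjusted by Benjamini-Hochberg over all 19572. An exact permutation of 2 against 2 arrays cannot go below p = 0.333 and was not used. The median SE of a log2 change was 0.22. The authors' detection and area-under-the-curve filters were not used here. The model was tested on simulated data drawn under its own assumptions, with planted changes larger than any among the 28 genes. That test does not show how the model handles smaller changes or the differences between these arrays. Same-numbered arrays did not deviate together (r = -0.0032 across transcript clusters). With 2 arrays per group this cannot show whether the numbers pair samples or mark a shared batch. The genes and lists were chosen with earlier results of these data known. Of the 28 genes, those described with all statistics had an unadjusted p under 0.05, a log2 change of at least 0.5 in size or the smallest p of their class; other genes of inhibitory transmission were named by the first or last of these. Other settings tried were limma's prior, weights per array, quantile normalisation, median centring, filters on dim signal, the replicate number as a block, and the fit without each array, where the lone array of a group is assumed to vary like the other group. Figures used matplotlib 3.10.9 in Python 3.11.15.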

Additional observations from a re-analysis of the deposited data

How the results depend on the processing

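Over all alternatives tried, the counts with an unadjusted p under 0.05 by limma among the 28 genes stayed between 0 and 3 in a direction. They were 2 higher and 2 lower with the trend and robust prior (Gabra5, Gabbr1, Gabrq and Nlgn2), where 1582 of all 19572 transcript clusters had such a p. The counts were 0 lower with either filter on dim signal, which removes Gabrq by construction. When 1 array was left out, they ranged from 0 to 1 higher and from 0 to 3 lower. The median log2 change of the genes, 0.04, ranged from -0.111 to 0.0939 with 1 array left out and was 0.17 over the 21 genes above either filter, where it was 0.05 over all transcript clusters tested. Among the other genes of inhibitory transmission the counts were 5 higher and 1 lower with the trend and robust prior, and from 0 to 4 higher and from 0 to 1 lower with 1 array left out. With the replicate block the counts were 0 higher and 1 lower among the 28 genes and 4 higher among the others, Akr1c18 being added; it changed no other call among these genes. With 1 array left out, 16 of the 28 genes turned direction under one or another array: Gabra3 (-0.101 to 0.442), Gabra6 (-1.004 to 0.183), Gabrg1 (-0.106 to 0.196), Gabrg3 (-0.364 to 0.0649), Gabrd (-0.210 to 0.289), Gabre (-0.295 to 0.297), Gabrr2 (-0.333 to 0.439), Gabrr3 (-0.204 to 0.197), Gabbr2 (-0.373 to 0.104), Glra1 (-1.22 to 0.0796), Glra2 (-0.218 to 0.706), Glra3 (-0.187 to 0.222), Gphn (-0.128 to 0.215), Slc12a2 (-0.144 to 0.518), Slc6a11 (-0.287 to 0.638) and Aldh5a1 (-0.150 to 0.516), and so did Gad1 (-0.328 to 1.15) and Gad2 (-0.141 to 0.820). Quantile normalisation turned Gabrg1 (-0.0012), Gabrr3 (0.0685), Glra3 (-0.0314) and Gphn (-0.0037), and median centring turned Gabre (-0.0170) and Glra3 (-0.00017). Over the 28 genes and 8 others, 357 values under alternatives kept their direction and their side of the threshold, 11 lost and 15 gained an unadjusted p under 0.05, and 33 turned direction. No gene of the 28 had several transcript clusters, so the mean over rows was not run. Signals near the negative controls limit what can be read from 7 of the 28 genes. Beyond the fewer genes or arrays that the filters and left-out arrays leave, the cause was not tested.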
